A study of Rattus norvegicus with 12 samples.

Results

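The genes of the cytosolic ribosomal proteins were followed in RNA sequencing of diabetic rat wounds, in 12 libraries of 4 treatments on day 3, 7, and 14. The members were chosen by symbol alone, as the rows whose symbol was Rpl or Rps with a number and at most a short suffix, together with Rplp0, Rplp1, Rplp2, and Rpsa. This gave 93 members of the 25620 genes in the count table, 55 of the large subunit and 38 of the small subunit. Of these members, 20 carried the symbol of a copy that ends in l or in l and a digit, such as Rpl3l or Rps12l3. The rule left out genes such as Fau and Rack1, which also give ribosomal components, and the genes of the mitochondrial ribosome. All animals were male SD rats made diabetic with streptozotocin, and each carried a full-thickness dorsal punch wound. The control wounds received normal saline, and the other groups received the dried mucus glue of the snail *A. fulica* (d-SMG), its glycosaminoglycan (s-GAG), or a commercial alginate dressing (Alg). The rats were 8 to 12 weeks old per the methods of the study, and whether a library came from 1 animal or from pooled animals was not given in the sources used here. There was 1 library for each treatment and day, so that a difference between treatments on a single day had no replicate check. Streptozotocin diabetes is a chemical model, which limits how far the wounds stand for a chronic ulcer.

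A cytosolic ribosome is built from rRNA and many small basic proteins, and each subunit carries a single copy of nearly every protein it is made of. The mRNAs of these proteins are short and abundant. In mammals they typically begin at a C followed by a run of pyrimidines, the terminal oligopyrimidine or TOP motif, through which mTOR signaling and the Larp1 protein adjust their translation and stability. Growing and matrix-secreting cells, such as the keratinocytes and fibroblasts of a healing wound, are known to hold many ribosomes.

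The start regions of some members are shown because the TOP motif is the feature that these genes are known to share. Promoter sequences of the RefSeq build GRCr8 were matched by symbol, and 67 of the 93 members had an entry on the chromosome that the count table gives. The windows hold 20 bases before the annotated start and 10 bases from the start base on, and capitals mark the run of pyrimidines that begins at the start base. The expressed members Rpl19, Rpl31, Rpl10, Rpl28, Rps18, and Rplp0 had such a run beginning with C, Rpl3 had a run beginning with T, and Rpl3l, Rpl7l1, and Rps27l had none.
Rpl19, chr10:83519044-83519073, plus strand: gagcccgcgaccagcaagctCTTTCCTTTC
Rpl31, chr9:49143091-49143120, plus strand: ccatcccacaatccctcgcgCCTTTCCTTT
Rpl10, chrX:157205830-157205859, plus strand: atgcgcaggcgtgggagcgtCTCTTTTCCT
Rpl28, chr1:78083523-78083552, minus strand: tgtcgccccgcccctagtgtCTTTCTTTCC
Rps18, chr20:4933725-4933754, plus strand: aactacacgtcacttccgctCTCTCTTCCa
Rplp0, chr12:46718381-46718410, minus strand: ctggtgaccgcaccgcacttCTCTCgccag
Rpl3, chr7:113507981-113508010, minus strand: ctgcaccagcgcctgctcgaTCTCTatcgg
Rpl3l, chr10:14258426-14258455, plus strand: catttgacctctggtgcctggtggggaggt
Rpl7l1, chr9:21695698-21695727, plus strand: gtggaagctgcagatgcattgtgggaagcc
Rps27l, chr8:76443638-76443667, plus strand: ttatagtttattcatttgtcattatttgtg

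A C at the start base followed by at least 4 pyrimidines was found in 21 of the 67 members, or 31.3%, against 722 of 27457 promoters, or 2.63%. All 21 were among the 58 matched members with a median level of at least 20 FPKM (fragment counts scaled by gene length and library total), without Rpl3l, and none of the 9 other matched members had it. When the run could begin anywhere from 5 bases before to 10 bases after the annotated start, the share was 56.7% of the members and 17.0% of all promoters. Over the whole 300 bases and on both strands, the GC box GGGCGG was found in 52.2% of the members and 34.9% of all promoters, and the ETS motif CCGGAAG in 29.9% and 9.22%. The YY1 motif AAGATGGC was found in 7.46% against 3.44%, and TATAAA in 11.9% against 14.3%. Each motif was counted by itself, also where matches overlap, and the matches describe letters only. The 21 expressed members with the run at the start base had a median level of 414 FPKM, and the 37 without it had 579 FPKM.

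The libraries held 13748887 to 38302461 reads on genes. The labels name the tissue as skin, and the marker genes of keratinocytes took 0.426 to 3.10% of the reads in 11 libraries but 0.00305% in d-SMG on day 3, where all 12 keratinocyte markers tested were more than 2-fold lower than in the control. Skeletal muscle markers took 0.822 to 19.8% of the reads, with the highest share in d-SMG on day 3. The s-GAG library of day 14 stood apart in the members and in other genes, as described beside each result. In such mixed tissue, fewer cells of a type and less RNA per cell cannot be told apart.

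All 93 members had a read in at least 1 library. A median level of at least 20 FPKM was reached by 77 members, and the other 16 were all named as copies. Among the highest were Rpl26, Rpl5, and Rpl19 of the large subunit, with median levels of 3308, 2111, and 1983 FPKM. Rpl5 forms a complex with Rpl11 and 5S rRNA that also binds the p53 regulator Mdm2. Among the lowest were Rps19l1 with a median of 0.08 FPKM and Rpl22l2, Rpl31l1, and Rpl30l1, each with a median of 0 FPKM and 1 to 6 reads in all 12 libraries. The rows of Rps9l1 and Rps19l2, at 518 and 231 FPKM, stood at the level of the standard members, and no member carried the symbol Rps9 or Rps19. Near-identical copies can share reads: 313 further rows that are described as copies of ribosomal protein genes took 0.0756 to 0.262% of the reads.

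Rpl26, which lies near the exit of the peptide tunnel, was at 3178, 1965, and 2297 FPKM in the control on day 3, 7, and 14. It was at 1772, 3450, and 4927 FPKM in d-SMG, 3289, 4212, and 10965 FPKM in s-GAG, and 4187, 3327, and 2971 FPKM in Alg. The control was thus lowest on day 7, d-SMG was lowest on day 3, and the highest value was that of s-GAG on day 14. Rplp0, Rplp1, and Rplp2 form the stalk on which the elongation factors land. Rplp0 was at 386, 171, and 181 FPKM in the control, 218, 267, and 341 FPKM in d-SMG, 209, 228, and 955 FPKM in s-GAG, and 276, 225, and 205 FPKM in Alg on the same days. Rplp1 ranged from 1001 FPKM in the control on day 7 to 7606 FPKM in s-GAG on day 14, and Rplp2 from 651 to 4103 FPKM in the same libraries. Rpsa, a small-subunit protein that is also known as a laminin receptor, was at 561, 256, and 286 FPKM in the control, 337, 462, and 549 FPKM in d-SMG, 348, 339, and 2059 FPKM in s-GAG, and 464, 394, and 309 FPKM in Alg. In all 4 of these genes, s-GAG on day 14 was the highest library and the control on day 7 the lowest.

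The members moved together from library to library. They took 5.47, 3.11, and 3.44% of the reads in the control on day 3, 7, and 14. In d-SMG the shares were 2.87, 5.10, and 6.53%, in s-GAG 4.36, 4.72, and 14.5%, and in Alg 5.38, 4.34, and 4.65%. The exact 95% binomial interval of the largest share was 14.5 to 14.6%, and those intervals cover counting error only. The control had its highest share on day 3, d-SMG had its lowest on day 3 and its highest on day 14, and Alg varied least. Of the reads outside skeletal muscle markers the members took 6.02, 3.34, and 3.73% in the control, 3.57, 5.14, and 6.60% in d-SMG, 4.62, 5.0, and 16.4% in s-GAG, and 5.69, 5.18, and 4.72% in Alg. The highest share was 5.07 times the lowest, and 2.28 times without s-GAG on day 14. After the normalization of edgeR (TMM, trimmed mean of M values), the summed level of the members differed 6.18-fold between the highest and the lowest library, and 1.79-fold without s-GAG on day 14.

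**Figure D1:**
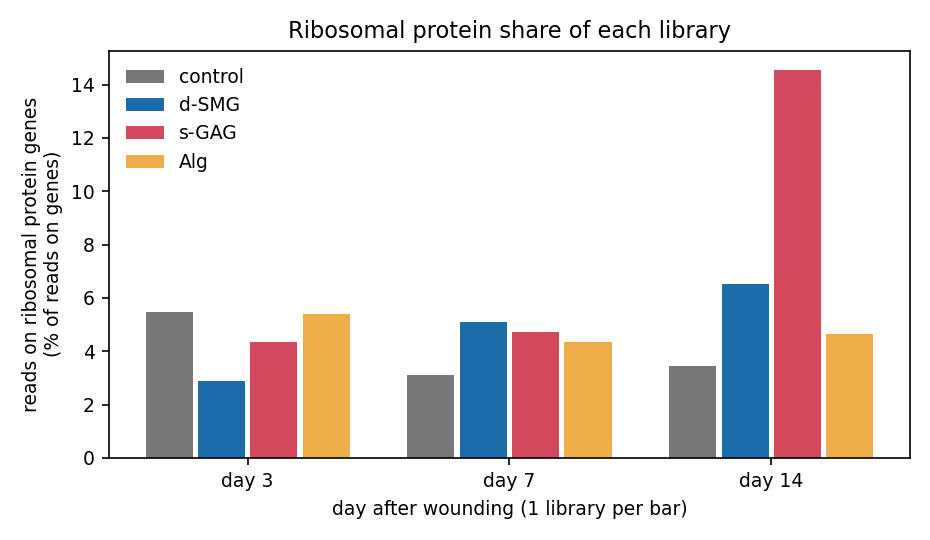
Share of the reads on genes that fell on the 93 ribosomal protein genes (y axis, %) on day 3, 7, and 14 (x axis), with a bar for each library, colored by treatment. The s-GAG library of day 14 reaches 14.5%, and the other 11 libraries lie between 2.87 and 6.53%.

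The summed FPKM of the large subunit was 1.79 to 2.04 times that of the small subunit over the 12 libraries, the lowest in d-SMG on day 7 and the highest in s-GAG on day 14. Of the members, 76 were taken as typical, with a median of at least 20 FPKM and without the muscle form Rpl3l. On the log2 scale, the level common to all typical members accounted for all but 12.3% of their variance between libraries, and for all but 36.6% when s-GAG on day 14 was left out. That level was the median of these same members, so the shares only describe them, and no other gene set was given this measure. The median Pearson correlation over the 2850 pairs of typical members was 0.944 over 12 libraries and 0.744 over 11; the points share their library and its normalization, and the values are descriptions. In s-GAG on day 14 the median typical member was 3.75-fold above its own mean over the libraries, and 74 of the 76 had their highest level there. The control on day 7 held the lowest level of 48 typical members at a median of 0.647 times their mean, and the control on day 14 held that of 22 at 0.681 times. By FPKM, which is scaled by library total without TMM, the lowest level was in d-SMG on day 3 for 35 typical members, in the control on day 7 for 28, and in the control on day 14 for 12. Over the libraries, the highest FPKM of a typical member was 2.18 to 12.6 times its lowest, with a median of 4.99 times.

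**Figure D2:**
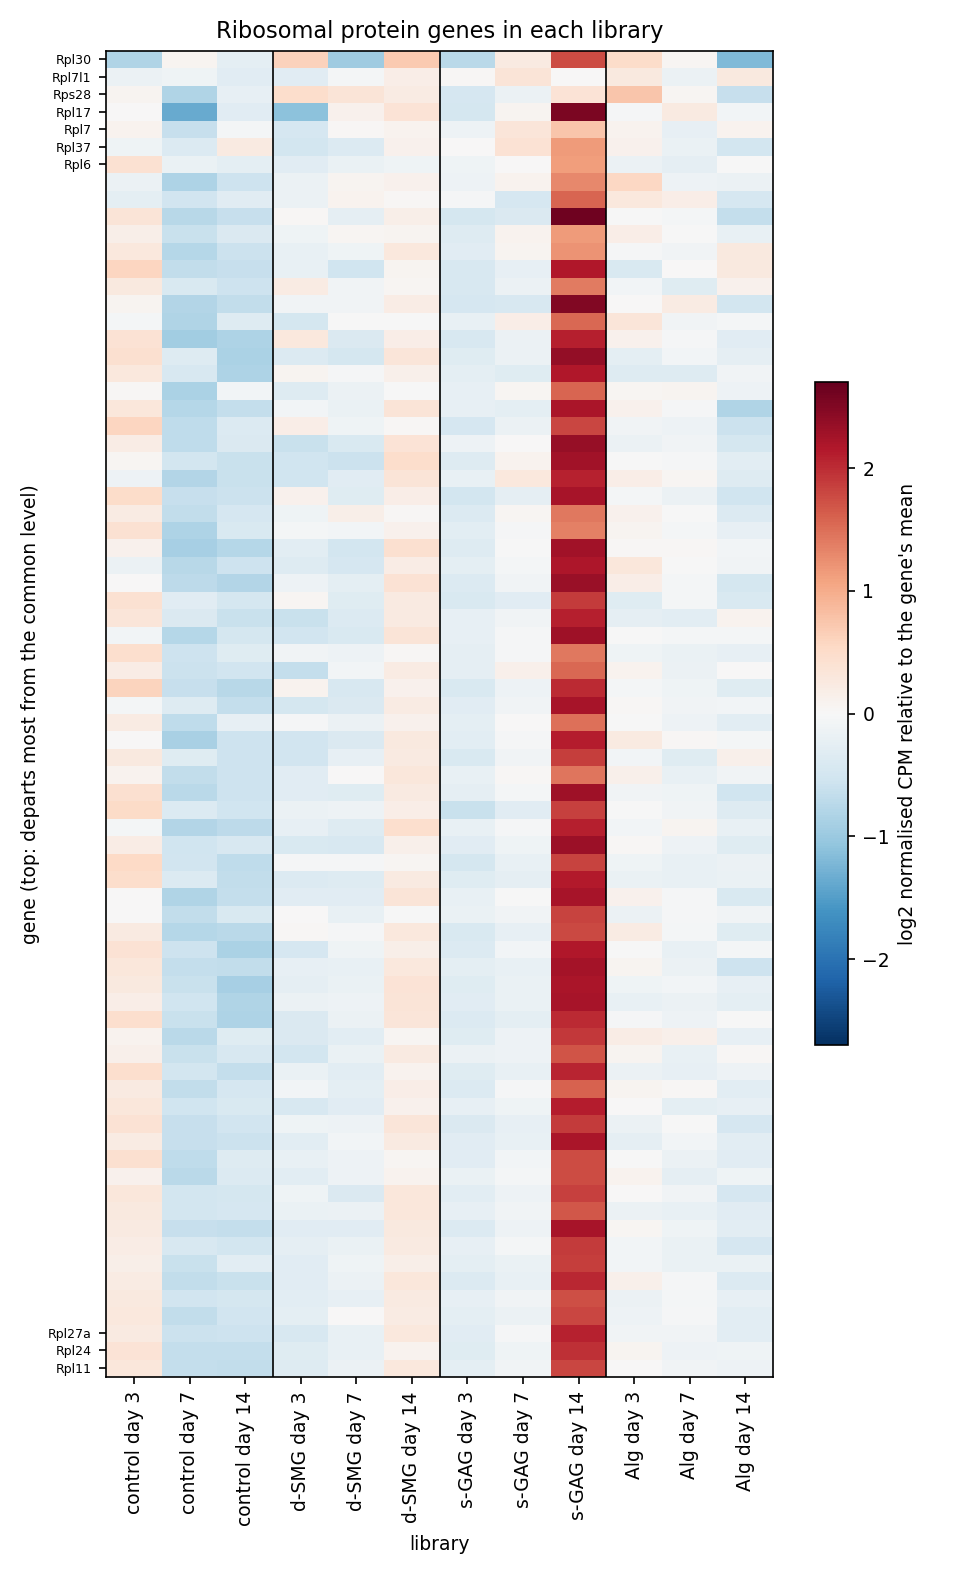
Level of the 76 typical ribosomal protein genes (rows) in the 12 libraries (columns, by treatment and day), as log2 normalized CPM relative to the mean of the gene. The column of s-GAG on day 14 is high in nearly all rows, with Rpl7l1 near its mean, and the control columns of day 7 and 14 are low; rows are ordered by how far a gene departs from the common level, from Rpl30 at the top to Rpl11 at the bottom, and the first 7 and last 3 are labeled.

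Each dressing was set against the control library of the same day, to see whether the dressed wounds held more or less ribosomal protein mRNA. With 1 library in each group there is no test, and a member was counted past 2-fold where its normalized CPM (reads scaled to library size) differed by at least that much. On day 3 most members were lower in the dressed wounds. In d-SMG 76 of the 85 members tested were lower, with a median log2 fold change of -0.46 against -0.03 over all genes tested, in s-GAG 80 of 86 were lower with a median of -0.54, and in Alg 64 of 85 with a median of -0.26. Other genes under 1000 bases were also lower on day 3, with medians of -0.24, -0.47, and -0.33 in d-SMG, s-GAG, and Alg, and of -0.15, -0.54, and -0.38 for those with at least 100 reads in the pair of libraries. The lower level was therefore shared with other short genes, to a like or larger extent in s-GAG and Alg. The medians of all genes tested were -0.05 to 0.05 in the 9 comparisons. Past 2-fold on day 3 were 2 members higher and 2 lower in d-SMG, where 9.35% and 14.2% of all genes were. In s-GAG 0 members were higher and 6 lower, beside 14.2% and 10.9% of all genes, and in Alg 1 was higher and 1 lower, beside 11.1% and 8.5%. Among the lower members in s-GAG were Rpl10, Rps29, Rpl12, Rps20, and Rplp0, with log2 fold changes of -1.12 to -1.01. In d-SMG Rpl3l and Rpl30 were higher by 2.55 and 1.47, and Rpl5l1, with 5 against 23 reads, and Rpl17 were lower, at -1.21 and -1.11. In Alg Rpl30 was higher by 1.33 and Rpl3l lower, at -1.59.

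On day 7 most members were higher in the dressed wounds, by a similar median in each. They were higher in 76 of 85 in d-SMG, in 86 of 88 in s-GAG, and in 78 of 85 in Alg, with medians of 0.45, 0.51, and 0.52. Other genes under 1000 bases moved the same way, with medians of 0.22, 0.30, and 0.37 and with 546 of 826, 622 of 924, and 536 of 764 genes higher. Past 2-fold were 3 members higher and 2 lower in d-SMG, where 6.5% and 6.2% of all genes were, 6 higher and 0 lower in s-GAG, beside 13.3% and 12.4%, and 7 higher and 0 lower in Alg, beside 12.5% and 11.5%. The counts past 2-fold were thus below the share of all genes, although nearly all members lay on 1 side. Rpl17 was past 2-fold in each dressing, at 1.47, 1.43, and 1.60 in d-SMG, s-GAG, and Alg, from 658 FPKM in the control to 2286, 1811, and 1889 FPKM. The copy Rpl31l4 was too, from 3 reads in the control. Rps28, a small protein near the exit of the mRNA, was higher by 1.21 in d-SMG, and Rpl3l was lower there at -4.65, with 53 reads against 904.

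On day 14 the 3 dressings differed most. The members were higher in 83 of 85 in d-SMG with a median of 0.76, in 87 of 87 in s-GAG with a median of 2.53, a fold of 5.76, and in 73 of 86 in Alg with a median of 0.27. Past 2-fold were 14 members higher and 1 lower in d-SMG, beside 12.4% and 15.8% of all genes, 82 higher and 0 lower in s-GAG, beside 27.5% and 30% of all genes, and 3 higher and 2 lower in Alg, beside 8.94% and 11.9%. Other genes under 1000 bases had medians of 0.42, 1.63, and 0.13 on day 14 in the same order. In s-GAG, 643 of 950 such genes were past 2-fold higher and 107 lower, so the shift was shared with other short genes. In d-SMG 209 of 884 were higher and 125 lower, and in Alg 163 of 887 were higher and 122 lower. The members' shares higher past 2-fold were 16.5% in d-SMG, 94.3% in s-GAG, and 3.49% in Alg. In d-SMG the largest was Rpl22l1 at 1.84, followed by Rpl10a at 1.28 and Rpl8 at 1.2. In s-GAG they were Rpl22l1 at 4.0, Rpl10l at 3.69, and Rps10l1 at 3.62 among the copies, and Rpsa at 3.26 and Rpl27 at 3.24 among the standard members. In Alg Rpl39l, from 1 to 11 reads, Rpl10l, and Rpl22l1 were higher, and Rpl3l and Rps10l1 lower. The dressings share the control library of their day, which had the highest member share of its day on day 3 and the lowest on day 7 and 14, so that the signs on a day are not independent of each other. Without TMM, on library size alone, all genes shifted by -0.43 in d-SMG on day 3 and by -0.45 in s-GAG on day 14, and the members' medians there became -0.88 and 2.08.

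**Figure D3:**
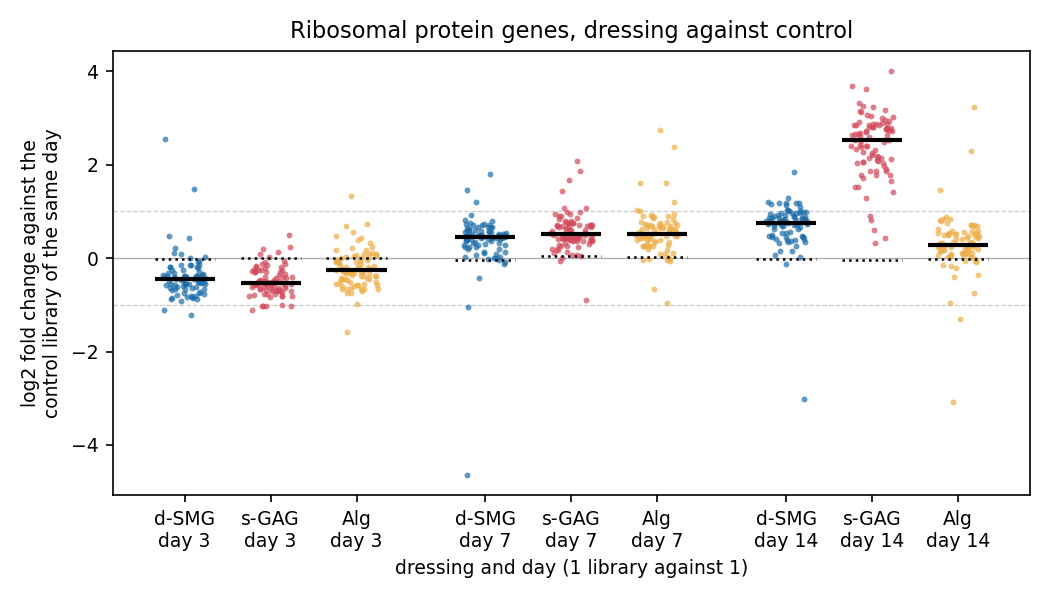
Log2 fold change of each ribosomal protein gene with at least 10 reads in the pair of libraries (y axis) for each dressing against the control library of the same day (x axis). Points are genes, solid bars the members' median, dotted bars the median of all genes tested, and dashed lines 2-fold; the medians are -0.54 to -0.26 on day 3, 0.45 to 0.52 on day 7, and 0.27 to 2.53 on day 14.

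The treatments were then compared over the 3 days, and the days over the 4 treatments, in a quasi-likelihood fit of edgeR that held both the day and the treatment. Of the 93 members 86 passed the low-count filter, and the other 7, all copies, had 1 to 73 reads in the 12 libraries. In none of the 6 comparisons was a member called at an adjusted p (FDR) of 0.05, and 0 of the 16110 genes tested were called, 0% in each. The unadjusted p was under 0.05 for 2 members in s-GAG against control, 1 in day 14 against day 3, and 0 in the others, and for 218, 1492, and 502 of all genes in d-SMG, s-GAG, and Alg against control and 292, 798, and 502 in day 7 against 3, day 14 against 3, and day 14 against 7. DESeq2 also called 0 members, and 9, 288, 88, 0, 39, and 7 of all genes in the same order.

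In s-GAG against control all 86 members tested were higher, with a median log2 fold change of 0.95 against 0.00 over all genes. The median was 0.05 without s-GAG on day 14 and -0.07 without day 14 altogether. Rpl38 and Rpl26, both of the large subunit, had the unadjusted p under 0.05, at 1.03 ± 0.41 (SE, adjusted p = 0.52 by edgeR) and 1.33 ± 0.59 (adjusted p = 0.54 by edgeR). The largest values were those of Rps10l1 at 1.97 ± 1.0 (SE), Rpl3l at 1.5 ± 1.95, and Rpl17 at 1.36 ± 0.74, and the smallest those of Rps28 at 0.30 ± 0.40, Rps27l at 0.33 ± 0.41, and Rpl7l1 at 0.33 ± 0.28. For the stalk proteins Rplp0, Rplp1, and Rplp2 they were 0.97 ± 0.70, 1.31 ± 0.78, and 1.17 ± 0.69, and for Rpsa 1.29 ± 0.81.

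In d-SMG against control the median was 0.16, with 72 of 86 members higher, and it ran from -0.17 without the control of day 14 to 0.67 without the control of day 3. The largest values were Rps28 at 0.68 ± 0.40 (SE), Rpl10l at 0.64 ± 0.75, and Rpl31l4 at 0.61 ± 0.70, and the lowest Rpl39l at -1.24 ± 1.29, Rpl5l1 at -0.31 ± 0.70, and Rpl6 at -0.24 ± 0.44. In Alg against control the median was also 0.16, with 66 of 86 higher, from -0.17 to 0.64 without the same libraries. The largest were Rpl31l4 at 0.85 ± 0.72, Rpl39l at 0.69 ± 1.15, and Rpl38 at 0.64 ± 0.40, and the lowest Rpl5l1 at -0.19 ± 0.69, Rps13 at -0.18 ± 0.56, and Rpl6 at -0.18 ± 0.44. None of these values was called, with an adjusted p of 1 by edgeR for each. The medians of d-SMG and Alg therefore turned with 1 control library.

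Between the days, the median was -0.24 in day 7 against day 3, with 82 of 86 members lower, 0.45 in day 14 against day 3, with 81 higher, and 0.71 in day 14 against day 7, with 84 higher. Without s-GAG on day 14 the last 2 medians were -0.14 and 0.06, and without the control of day 3 the median of day 7 against day 3 was 0.10. Rps10l1, a copy of the small-subunit gene Rps10, was at 2.24 ± 0.88 (SE) in day 14 against day 3, with an unadjusted p of 0.030 by edgeR and an adjusted p of 0.88. It was followed by Rpl17 at 1.03 ± 0.64 and Rps19l2 at 0.78 ± 0.49, and Rpl3l at -1.14 ± 2.19, Rps28 at -0.27 ± 0.35, and Rps18l1 at -0.04 ± 0.45 stood at the other end. In day 14 against day 7 the ends were Rps10l1 at 2.04 ± 0.94, Rpl12 at 0.95 ± 0.58, and Rpl8 at 0.95 ± 0.54, and Rpl3l at -0.58 ± 2.11, Rpl39l at -0.18 ± 1.03, and Rpl7l1 at 0.03 ± 0.24. In day 7 against day 3 they were Rpl39l at 0.76 ± 1.0, Rps10l1 at 0.19 ± 0.85, and Rpl17 at 0.10 ± 0.62, and Rpl31l4 at -0.72 ± 0.62, Rplp2 at -0.59 ± 0.56, and Rpl3l at -0.57 ± 2.30.

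In s-GAG on day 14 the members were compared with the mean of the other 3 libraries of that day, as a description. The median member with at least 100 reads on day 14 was 2.12 higher on the log2 scale. Of these 84 members, 83 had their highest day 14 level there, against 39.1% of all genes with as many reads. So did 71 of 73 mitochondrial ribosomal protein genes, 10 of 11 other TOP mRNAs, 8 of 9 elongation factors, and 42 of 54 ribosome biogenesis genes. For initiation and poly(A) binding genes it was 16 of 29, and for mTOR and TOP mRNA regulators 8 of 18. Rpsa was 8.0-fold, Rplp1 7.07-fold, Rpl27 6.23-fold, and Rplp0 5.81-fold above that mean. Rpl7 and Rps28 were 1.64-fold and 1.49-fold above it, and Rpl7l1, a nucleolar relative of Rpl7, was level at 0.983 times. Rpl7 was at 1367, 1701, 1814, and 1669 FPKM in the control, d-SMG, s-GAG, and the Alg library of day 14, while Rpl27a, Rpl24, and Rpl11 followed the common level closely.

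Among genes that are no members, the excess in that library fell with the length of a gene, as far as counts and FPKM imply it. Their median log2 excess was 1.59 for genes under 500 bases, 1.43 from 500 to 1000, 0.92 from 1000 to 2000, 0.21 from 2000 to 4000, and -0.65 over 4000 bases. The members had medians of 1.58 under 500 bases (13 genes), 2.11 from 500 to 1000 (45 genes), and 2.29 from 1000 to 2000 bases (24 genes). From 2000 to 4000 bases their median was 1.08, over 2 genes. Up to 2000 bases the members' medians thus rose with length, where those of the other genes fell. Within the shortest class the members were thus level with other genes, and in the next 2 classes they lay above the upper quartile of 2.0 and 1.47. Over the typical members, Spearman's rho between the excess and the length was 0.20, as a description across genes. Other genes shorter than 1000 bases took 11.4% of the reads in s-GAG on day 14 and 3.96 to 6.79% in the other libraries, and mitochondrial genes took 0.872%, the lowest of all 12. Over the 12 libraries the share of these other short genes went with the members' common level at Pearson's r = 0.92, and at 0.54 without s-GAG on day 14, as a description of values that share library and depth. The part of length or RNA quality in the members' excess was not tested.

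**Figure D4:**
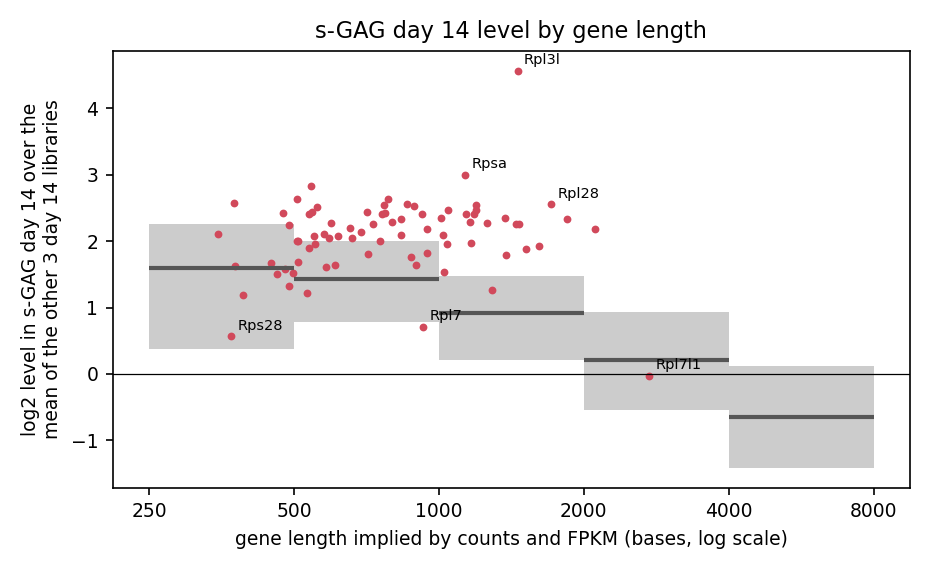
Log2 level in s-GAG on day 14 over the mean of the other 3 day 14 libraries (y axis) by gene length (x axis, bases, log scale), for the 77 expressed ribosomal protein genes (points) and for all other genes (gray boxes, quartiles; dark lines, medians). Medians of the other genes fall from 1.59 to -0.65 with length, and most members of 500 to 2000 bases lie above the gray boxes.

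Other groups of the translation machinery differed in that library. The elongation factors had a median of 1.30, from Eef2 at -0.08 to Eef1b2 at 2.73, and the other TOP mRNAs had 1.59, with Vim, an intermediate filament gene, lowest at 0.06. The mitochondrial ribosomal proteins, a list added after the data were seen, had a median of 1.57 over 73 genes, ribosome biogenesis genes 0.84, initiation and poly(A) binding factors 0.38, from Pabpc1 at -1.48 to Eif3k at 2.27, and mTOR and TOP mRNA regulators 0.05. All genes had -0.03. Of the cell type markers, macrophage genes had a median of -2.29, with 12 of 13 lowest in s-GAG on day 14, and fibroblast and matrix genes -1.39. Skeletal muscle genes had 2.97, from Neb at -2.81 to Myh7 at 6.56, with 14 of 18 highest there. Keratinocyte genes had 0.09, from Dsc3 at -4.78 to Krt17 at 2.44. Endothelial, lymphocyte, neutrophil, adipocyte, and hair follicle genes had -0.84, -0.52, -0.18, 0.12, and 0.64. The part of these cell types in the members' level was not tested. Hair follicle markers took 0.000363 to 0.975% of the reads, and over the 3 days 15 of 15 genes were higher against control, with medians of 4.32, 6.74, and 5.73 in d-SMG, s-GAG, and Alg, none called. In d-SMG on day 3, however, 3 of the 4 that could be compared were more than 2-fold lower, with a median of -1.87, and their part was not tested either.

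Over the libraries the same groups were read against control with the quasi-likelihood test, and 0 genes of any list were called. In s-GAG against control the medians were 0.22 for 9 elongation factors, with 8 higher, 0.15 for 29 initiation and poly(A) binding genes, with 18 higher, 0.62 for 11 other TOP mRNAs, with 9 higher, 0.55 for 54 ribosome biogenesis genes, with 52 higher, and -0.01 for 18 mTOR and TOP mRNA regulators. In the order of these lists, the ends were Eef1b2 at 1.48 ± 0.67 (SE) and Eef2 at -0.29 ± 0.35, Eif3d at 1.14 ± 0.49 and Pabpc4 at -0.53 ± 0.54, Vim at the low end at -0.86 ± 0.42, Nop56, a snoRNP core protein, at 1.33 ± 0.56 and Rrn3 at -0.13 ± 0.27, and Myc at 1.01 ± 0.42 and Tsc1 at -0.61 ± 0.40. In d-SMG and Alg against control the ribosome biogenesis genes had medians of 0.18 and 0.25, with 51 and 52 of 54 higher, and the elongation factors -0.13 and -0.14. On day 3 the biogenesis genes had 0.07, -0.08, and 0.15 in d-SMG, s-GAG, and Alg against control, beside the members' medians of -0.46, -0.54, and -0.26. In s-GAG on day 3, 7, and 14, the elongation factors had -0.54, 0.06, and 0.71. The initiation and poly(A) binding genes had -0.28, 0.33, and 0.51, the other TOP mRNAs -0.63, 0.35, and 1.88, and the biogenesis genes -0.08, 0.56, and 1.22. The medians of these lists over the 3 days in s-GAG were thus not steady from day to day.

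Some members departed from the common level beyond the rest. The SD of the departure over the 12 libraries, on the log2 scale, was 0.66 for Rpl30, 0.65 for Rpl7l1, 0.61 for Rps28, 0.43 for Rpl17, 0.43 for Rpl7, and 0.42 for Rpl37, and 0.07 for Rpl11, 0.08 for Rpl24, and 0.08 for Rpl27a. Without s-GAG on day 14 it was 0.69 for Rpl30, 0.28 for Rpl7l1, 0.39 for Rps28, 0.40 for Rpl17, 0.24 for Rpl7, and 0.36 for Rpl37. Rpl7l1 thus departed mainly in that library, by -1.89, and the SD of its own level was 0.22. Rpl30 of the large subunit was at 25.2, 46.1, and 37.4 FPKM in the control on day 3, 7, and 14, at 52.0, 27.8, and 82.0 FPKM in d-SMG, at 29.1, 53.6, and 116 FPKM in s-GAG, and at 67.1, 43.0, and 20.8 FPKM in Alg. It was thus lowest in Alg on day 14 and, of the day 3 libraries, in the control. Rps28 was at 40.7, 20.7, and 33.0 FPKM in the control, 40.5, 60.3, and 50.1 FPKM in d-SMG, 30.2, 34.2, and 37.7 FPKM in s-GAG, and 69.6, 36.6, and 27.0 FPKM in Alg, with its highest value in Alg on day 3. Rpl17, a large-subunit protein at the exit of the peptide tunnel, ranged from 597 FPKM in d-SMG on day 3 to 7530 FPKM in s-GAG on day 14. Among the members at or above the median level of 342 FPKM, the CV of the FPKM was highest for Rpsa at 92.7% and lowest for Rpl7 at 24.2%.

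The copies were read against the standard gene by FPKM. How reads shared by near-identical copies were counted is not given, so the share of a copy may hold reads of its standard gene. Rpl22l1, the paralog of Rpl22 with its own start region, made up 1.25 to 5.67% of the 2 together, and its level ran from 6.37 FPKM in the control on day 14 to 77.5 FPKM in s-GAG on day 14. Rps27l, known as a p53 target, made up 1.03 to 3.98% of the sum with Rps27, and ran only from 8.38 to 16.5 FPKM while Rps27 ran from 251 to 1574 FPKM. Rpl7l1 made up 1.15 to 2.67% of the sum with Rpl7, at 16.7 to 36.3 FPKM. Rpl10l, known from testis, made up 0.740 to 3.58% beside Rpl10, and Rpl39l, also known from testis, 0 to 1.15% beside Rpl39. Rpl39l was near the floor, at 0 to 1.45 FPKM. Rps10l1 made up 2.02 to 14.6% beside Rps10 and was at 3.78 FPKM in the control on day 7 and 159 FPKM in s-GAG on day 14, and Rps18l1 made up 1.30 to 2.86% beside Rps18.

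Rpl3l differed most from the other members. Rpl3 lies near the catalytic center of the large subunit, and Rpl3l takes its place in ribosomes of striated muscle. Rpl3l was at 42.7, 41.7, and 31.6 FPKM in the control on day 3, 7, and 14, at 185, 2.07, and 4.37 FPKM in d-SMG, at 37.6, 23.0, and 146 FPKM in s-GAG, and at 15.0, 120 and 4.03 FPKM in Alg. Rpl3 was at 715, 464, and 406 FPKM in the control, 313, 628, and 785 FPKM in d-SMG, 491, 556, and 1642 FPKM in s-GAG, and 602, 442, and 720 FPKM in Alg. Rpl3l thus made up 37.2% of the 2 in d-SMG on day 3 and 0.329% in d-SMG on day 7, with a median of 6.37%. The libraries high in Rpl3l were those high in skeletal muscle markers, which took 9.26, 6.99, and 7.75% of the reads in the control, 19.8, 0.822, and 1.09% in d-SMG, 5.56, 5.59, and 11.1% in s-GAG, and 5.40, 16.0, and 1.51% in Alg.

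Over the 12 libraries, log2(FPKM + 1) of Rpl3l went with the muscle marker share, with Pearson's r = 0.914 and Spearman's rho = 0.951, each with a two-sided permutation p of 2e-05, the smallest that the permutations can give. It was the only relation tested by permutation, and none of its p-values given here is adjusted. The permutations shuffle libraries across days and treatments. Without the 2 libraries farthest from the median share r was 0.962 (permutation p = 0.00012) and rho 0.927 (permutation p = 0.0004). Since 3 libraries lay apart with under 2% of muscle markers, it was also computed over the other 9, with r = 0.885 (exact permutation p = 0.00086) and rho = 0.90 (exact permutation p = 0.0020). A day or a treatment holds too few libraries for a value of its own. Rpl3 was lowest in d-SMG on day 3, the library with the most muscle markers, and highest in s-GAG on day 14.

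**Figure D5:**
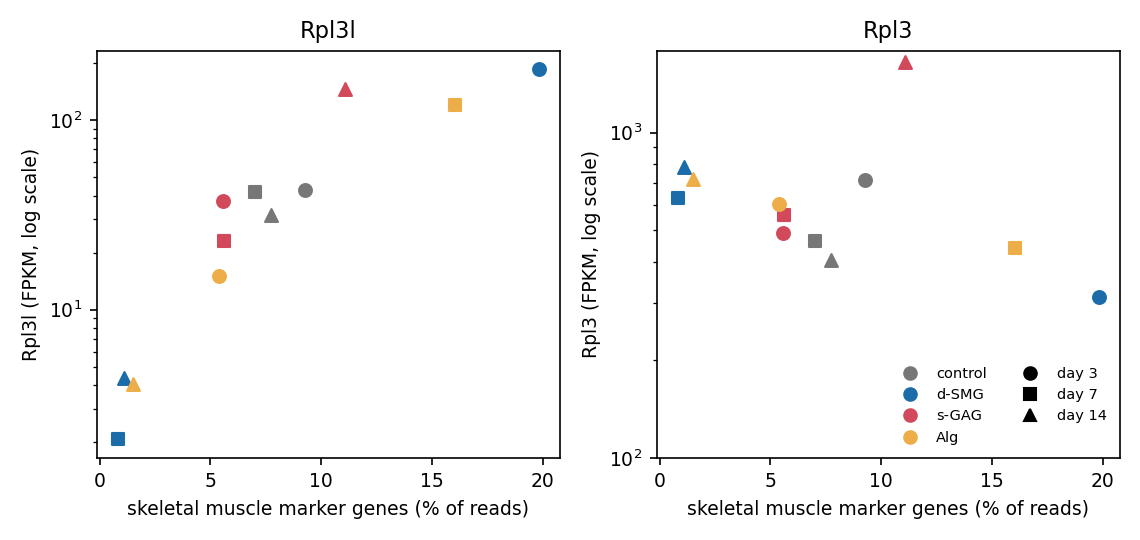
FPKM of Rpl3l (left) and Rpl3 (right), both on a log y axis, by the share of reads on skeletal muscle marker genes (x axis, %), with a point for each library, colored by treatment and shaped by day. Rpl3l runs from 2.07 FPKM at 0.822% to 185 FPKM at 19.8%, and Rpl3 stays between 313 and 1642 FPKM.

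The genes outside the members whose pattern was most like the members' common level were sought among 8783 genes with a mean of at least 10 CPM. By Pearson's r over the 12 libraries they were LOC100359922, described as like L13, at 0.986, Rack1, a scaffold on the small subunit, at 0.986, LOC100361933, described as like S12, at 0.986, Mpdu1 at 0.985, Eif3el1 at 0.984, Fau, which encodes a small-subunit protein fused to a ubiquitin-like one, at 0.984, Rpl35al1 at 0.983, Raver1 at 0.983, Myg1 at 0.980, and LOC120093693 at 0.980. Without s-GAG on day 14 they ran from 0.957 for Rpl35al1 to 0.868 for LOC120093693, and Rack1 was at 0.936, while Gas5, a noncoding host of snoRNAs with a TOP start, was at 0.932. Rpl35al1 is described as like the ribosomal protein L35a, and the symbol rule left it out because of its suffix. The correlations are over libraries that share depth and normalization and are descriptions.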

How the data were processed

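Wound RNA of 12 libraries, 1 for each of 4 treatments on 3 days, was used. The authors deposited read counts of 25620 genes, without normalization, and FPKM of 25524 genes, which take account of the length of a gene and the size of a library. Per the labels, the submitters' processing notes name bcl2fastq, FastQC, TopHat2, and edgeR; the genome build and the counting rule are not given in the sources used here. Of each file, 1 further column matched no described sample and was not used. Groups came from the labels.

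Comparisons over the libraries were made in R 4.3.3 by edgeR 4.0.16 (quasi-likelihood test), with day and treatment in the model and TMM. They used filterByExpr, Benjamini-Hochberg adjustment across all 16110 genes, and 6 residual degrees of freedom. Each SE was derived as the size of the log2 fold change over the square root of its F statistic. In that model the days or the treatments serve as the replicates. The single-day comparisons used TMM-normalized CPM of genes with at least 10 reads in the pair of libraries and a prior count of 0.5, with no test. The design was tested on simulated counts with a BCV (relative spread between libraries) of 0.316 for every gene. Log2 changes of 2 or 3, the same in every block, were recovered in 96 to 100% of genes, with 16 and 8 false calls in the 2 comparisons simulated. The real spread differs between genes and the changes differ between blocks, so this recovery does not carry over to these data. Levels between genes are FPKM, and common levels used log2 with a pseudocount of 0.5 CPM. Promoters came from RefSeq (GRCr8). Correlations used 100000 permutations or, below 10 libraries, all of them (scipy 1.17.1 in Python 3.11.15).

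The genes named were those among the 5 highest and 5 lowest by median FPKM, the 3 largest changes in each direction for each comparison over the libraries, Rplp0, Rplp1, Rplp2, and Rpsa, the copies with their standard genes, the highest and lowest CV at or above the median level, the largest changes of each other list, and the 10 genes most like the members; others were named after their values were seen, among them members past 2-fold on a day and members that depart from the common level. Some genes that the rule would name are not reported here. The members and lists were chosen with earlier results of these data known. Alternatives were RLE size factors, library size alone, TMM without the members, no low-count filter, DESeq2 1.42.0, no replicate block, only the libraries compared, FPKM with limma 3.58.1 and a pseudocount of 1 or 0.1, unadjusted p, each library, day, or treatment left out, and for single days 1.5-fold and the exact test of edgeR at a set BCV of 0.3. Figures were drawn with matplotlib 3.10.9.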

Additional observations from a re-analysis of the deposited data

Results flagged for a closer look

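The median log2 fold change of the ribosomal protein genes against the control library of the same day had opposite signs on day 3 and on the later days in all 3 dressings. On day 3 it was -0.46 in d-SMG, -0.54 in s-GAG, and -0.26 in Alg. On day 7 it was 0.45, 0.51, and 0.52 in the same order, and on day 14 it was 0.76, 2.53, and 0.27. The difference between the days was not tested, since there was 1 library for each treatment and day. On day 3 the d-SMG library had 0.00305% of its reads on keratinocyte markers and 19.8% on skeletal muscle markers. The control had 0.562% and 9.26%, and the part of this tissue mix was not tested. The dressings share the control library of each day, so the 3 dressings are not separate evidence of the change in sign. Other genes under 1000 bases had medians of the same signs. Their day 3 values were -0.24, -0.47, and -0.33 in the same order, those of day 7 were 0.22, 0.30, and 0.37, and those of day 14 were 0.42, 1.63, and 0.13, so the change in sign was not particular to the ribosomal protein genes.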

How the results depend on the processing

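The lack of called members held in 151 of 153 alternatives of the 6 comparisons over the libraries. At an unadjusted p under 0.05, 2 members passed in s-GAG against control and 1 in day 14 against day 3. The main fit called 0 of all 16110 genes. With libraries, days, or treatments left out, at most 66 of all genes were called in s-GAG against control and 0 in the other comparisons. The count of 0 members could therefore hardly change, and its steadiness says little about the members. Of the medians, 201 of 210 alternatives kept their sign, among them all 63 of the single days. Those of the single days changed only the normalization, filter, measure, or test of the same pair of libraries. They left out no library, so their kept signs say little about another library of the same group. Each treatment and day had 1 library, so that the day is the block in the treatment comparisons. Removal of the block (no replicate block) changed no count of calls, and 0 of all genes were called there as well. Limits are the single libraries, s-GAG on day 14, and the controls of day 3 and 14, as given with the comparisons.

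The counts past 2-fold on single days moved more, and 37 of 72 alternatives stayed within 1.5 times. On library size alone they were 29 in d-SMG and 0 in s-GAG on day 3, and 18 and 38 in d-SMG on day 7 and 14. Without the low-count filter they were 9, 11, and 8 in d-SMG, s-GAG, and Alg on day 3 and 11 in Alg on day 7. At 1.5-fold they were 27, 33, and 16 on day 3, 23, 38, and 39 on day 7, and 61 in d-SMG and 19 in Alg on day 14. By FPKM with a pseudocount of 1 they were 26 and 0 in d-SMG and s-GAG on day 3, 11 and 4 in d-SMG and Alg on day 7, and 29 in d-SMG on day 14. With a pseudocount of 0.1 they were 31, 2, and 6 on day 3, 16 in d-SMG on day 7, and 33 and 8 in d-SMG and Alg on day 14. By the exact test at a set BCV of 0.3 the day 3 counts were 1, 0, and 0, those of day 7 were 1, 0, and 1, and d-SMG and Alg had 1 and 2 for day 14.

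Some named values changed sign, and the cause was not tested. With no replicate block Rps18l1 was at 0.11 in day 14 against day 3, and Rpl3l at 0.26 in day 14 against day 7. With only the libraries compared, Rpl3l was at 0.0763 there and Rps10l1 at -0.0607 in day 7 against day 3. Rpl7l1 in day 14 against day 7 was at -0.0444 on library size and at -0.0375 and -0.0394 by FPKM with a pseudocount of 1 and 0.1.

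With libraries, days, or treatments left out, 19 of 36 named values changed sign. In Alg against control the ranges were -0.90 to 0.17 for Rpl5l1, -0.56 to 0.28 for Rps13, -0.45 to 0.18 for Rpl6, -0.16 to 1.74 for Rpl39l, and -0.0011 to 1.71 for Rpl31l4. In d-SMG they were -0.84 to 0.18 for Rpl5l1 and -0.50 to 0.16 for Rpl6, and in s-GAG -0.11 to 0.65 for Rps28, -0.31 to 0.73 for Rps27l, and -1.93 to 2.45 for Rpl3l. In day 14 against day 3 they were -3.34 to 1.11 for Rpl3l, -0.65 to 0.0778 for Rps28, and -0.57 to 0.29 for Rps18l1. In day 14 against day 7 they were -2.54 to 1.36 for Rpl3l, -0.96 to 0.57 for Rpl39l, and -0.11 to 0.14 for Rpl7l1. In day 7 against day 3 they were -3.26 to 1.46 for Rpl3l, -0.29 to 0.72 for Rpl17, and -0.94 to 0.81 for Rps10l1.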
